A study of Mus musculus with 24 samples.

Results

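The 9 genes described here encode transcription factors that mark or set the identity of projection neurons in the layers of the cerebral cortex. They were chosen by gene symbol, and all 9 were found among the 26411 genes counted in every library. *Tbr1*, *Bcl11b* and *Fezf2* belong to the deep layers, *Cux1*, *Cux2*, *Rorb* and *Pou3f2* to the upper layers, and *Neurod6* and *Bhlhe22* encode basic helix-loop-helix (bHLH) proteins of newborn projection neurons.

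Cortical projection neurons are born in order, deep layers first, from radial glia and intermediate progenitors of the dorsal telencephalon. As the neurons mature, layer transcription factors activate the program of one fate and repress others, and *Tbr1*, *Fezf2* and *Bcl11b* take part in such mutual repression. Some of the factors have other sites of expression. *Pou3f2* is also found in dividing neural progenitors, *Cux1* in many cell types, and *Bcl11b* in striatal neurons and some interneurons.

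The cells were mouse neural stem and progenitor cells (NSPCs), grown from the dorsal telencephalon of embryos at E12.5 on a C57BL/6 background. Embryos carried 2, 1 or 0 intact *Kat6a* alleles (*Kat6a*+/+, *Kat6a*+/– and *Kat6a*–/–), and *Kat6a* encodes a histone acetyltransferase. The mutant allele is a germline null allele that lacks several exons, so every cell type of the culture carried it. Cells had been expanded as neurospheres and frozen at an early passage. Proliferating NSPCs were kept for 3 days with FGF2 and EGF, and differentiating NSPCs for 3 days on poly-L-ornithine and laminin with serum and without these factors. Polyadenylated RNA was sequenced in 24 libraries, 4 for each genotype in each condition, and each library had the label of 1 embryo. Differentiating and proliferating cells had different RNA extraction kits, so kit and condition cannot be told apart.

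Library totals ran from 7826660 to 40838203 counts in proliferating and from 14836869 to 23692125 counts in differentiating NSPCs. Litters and Y-linked reads were not balanced over genotypes. There were 5 litters in proliferating and 7 litters in differentiating NSPCs, and in both conditions Y-linked reads were found in 3 of 4 *Kat6a*+/+ libraries and in 1 of 4 for *Kat6a*+/– and for *Kat6a*–/–. Levels are given as CPM, read counts scaled to a common library size, and values with ± are means ± SD over the 4 libraries (n = 4) of a group. *Kat6a* itself, counted over the whole gene, was at 395 ± 16.7, 353 ± 16.5 and 355 ± 24.6 CPM in proliferating *Kat6a*+/+, *Kat6a*+/– and *Kat6a*–/– NSPCs and at 267 ± 24.2, 236 ± 17.8 and 191 ± 43.1 CPM in differentiating ones. Reads from the exons that remain are included in it, so it does not check the genotype labels. The labelled cell type was checked against 8 radial glia markers, none of which was at 0 in any group. Their summed level was between 5146 and 8025 CPM in proliferating and between 5943 and 11802 CPM in differentiating libraries. The sum differed by genotype after differentiation, at 8210 to 11802 CPM in *Kat6a*–/– and 5943 to 7571 CPM in *Kat6a*+/+ libraries. The single markers did not move one way. At a false discovery rate under 0.05, 3 of the 8 were higher and 3 lower in *Kat6a*–/–, where 54.4% of all genes passed. Their median log2 fold-change was −0.39. In proliferating NSPCs the sums of these genotypes overlapped, at 5146 to 7169 CPM and 7144 to 8025 CPM.

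The sequences just before a start of transcription in RefSeq are shown for 4 members. These had the largest fitted differences between differentiating *Kat6a*–/– and *Kat6a*+/+ NSPCs. They are the 250 bases upstream of the first RefSeq start of each gene (GRCm38.p6), written 5′ to 3′ on the coding strand, with CpG dinucleotides in capitals. Each matched GRCm39 once. The gene positions given below are from GENCODE vM39, and the 2 annotations differ in where some genes start. The *Bcl11b* and *Cux2* sequences lie inside the GENCODE genes, which start at 107970417 and 122188521 on the minus strand. That of *Rorb* overlaps the start of its gene in part, and that of *Pou3f2* directly precedes its gene. Promoter sequences were found for 8 of the 9 members and not used for *Bhlhe22*.
Bcl11b, chr12:107969674-107969923, minus strand: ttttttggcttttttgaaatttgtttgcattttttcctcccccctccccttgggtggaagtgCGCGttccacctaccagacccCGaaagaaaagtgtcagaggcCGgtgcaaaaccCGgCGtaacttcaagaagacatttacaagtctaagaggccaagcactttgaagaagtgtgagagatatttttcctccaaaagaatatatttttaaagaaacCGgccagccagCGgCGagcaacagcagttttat
Cux2, chr5:122187915-122188164, minus strand: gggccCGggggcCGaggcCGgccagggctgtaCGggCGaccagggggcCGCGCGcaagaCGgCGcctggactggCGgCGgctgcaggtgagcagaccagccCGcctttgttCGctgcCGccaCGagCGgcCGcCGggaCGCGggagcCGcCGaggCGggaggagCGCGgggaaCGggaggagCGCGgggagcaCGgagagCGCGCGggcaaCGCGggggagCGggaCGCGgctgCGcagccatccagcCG
Rorb, chr19:19088561-19088810, minus strand: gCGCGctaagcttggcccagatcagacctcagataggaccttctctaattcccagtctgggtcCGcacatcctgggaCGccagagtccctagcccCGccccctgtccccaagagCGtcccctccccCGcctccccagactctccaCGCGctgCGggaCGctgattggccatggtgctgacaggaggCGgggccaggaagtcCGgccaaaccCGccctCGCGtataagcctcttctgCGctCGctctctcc
Pou3f2, chr4:22488367-22488616, minus strand: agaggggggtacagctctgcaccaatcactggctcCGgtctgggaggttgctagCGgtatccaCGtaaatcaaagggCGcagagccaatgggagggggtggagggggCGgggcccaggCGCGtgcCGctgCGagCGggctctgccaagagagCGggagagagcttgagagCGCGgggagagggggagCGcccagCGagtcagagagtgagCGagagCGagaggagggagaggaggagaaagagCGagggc

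The *Cux2* sequence held 40 CpG dinucleotides and 80.0% G or C, and 1.31% of 32851 promoters held at least as many. *Rorb* and *Pou3f2* had 18 CpG each and *Bcl11b* had 9, beside a median of 6 over all promoters. The 2 members with the lowest levels in these cells differed from each other, with 14 CpG in *Fezf2* and 3 in *Neurod6*. Of the 4 printed sequences, 1 held an E-box (CANNTG, both strands), the *Cux2* sequence, while 66.2% of all promoters held one. The core of SOX sites (ACAAAG, both strands) was also found in *Cux2* only, beside 16.5% of all promoters. These are counts of letters and name no binding site.

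The level of each member was first compared per length, as CPM per kilobase (RPKM). In differentiating *Kat6a*+/+ NSPCs, *Pou3f2* was at 15.1 ± 3.29 RPKM and *Cux1* at 13.9 ± 1.00 RPKM, and their libraries overlapped. *Rorb* followed at 4.61 ± 0.464 RPKM and *Cux2* at 2.68 ± 0.399 RPKM, each apart from its neighbours above. *Bcl11b* was at 1.60 ± 0.602 RPKM, and its highest library (2.31 RPKM) lay above the lowest *Cux2* library (2.18 RPKM). The other 4 members were below 0.13 RPKM on average. Proliferating *Kat6a*+/+ NSPCs had *Pou3f2* at 9.64, *Cux1* at 8.77, *Rorb* at 4.92, *Bcl11b* at 1.60 and *Cux2* at 0.762 RPKM. The place of *Bcl11b* and *Cux2* in this order was therefore exchanged between the conditions. All 4 upper-layer members were measured well, and *Bcl11b* was the single deep-layer member that was.

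**Figure D1:**
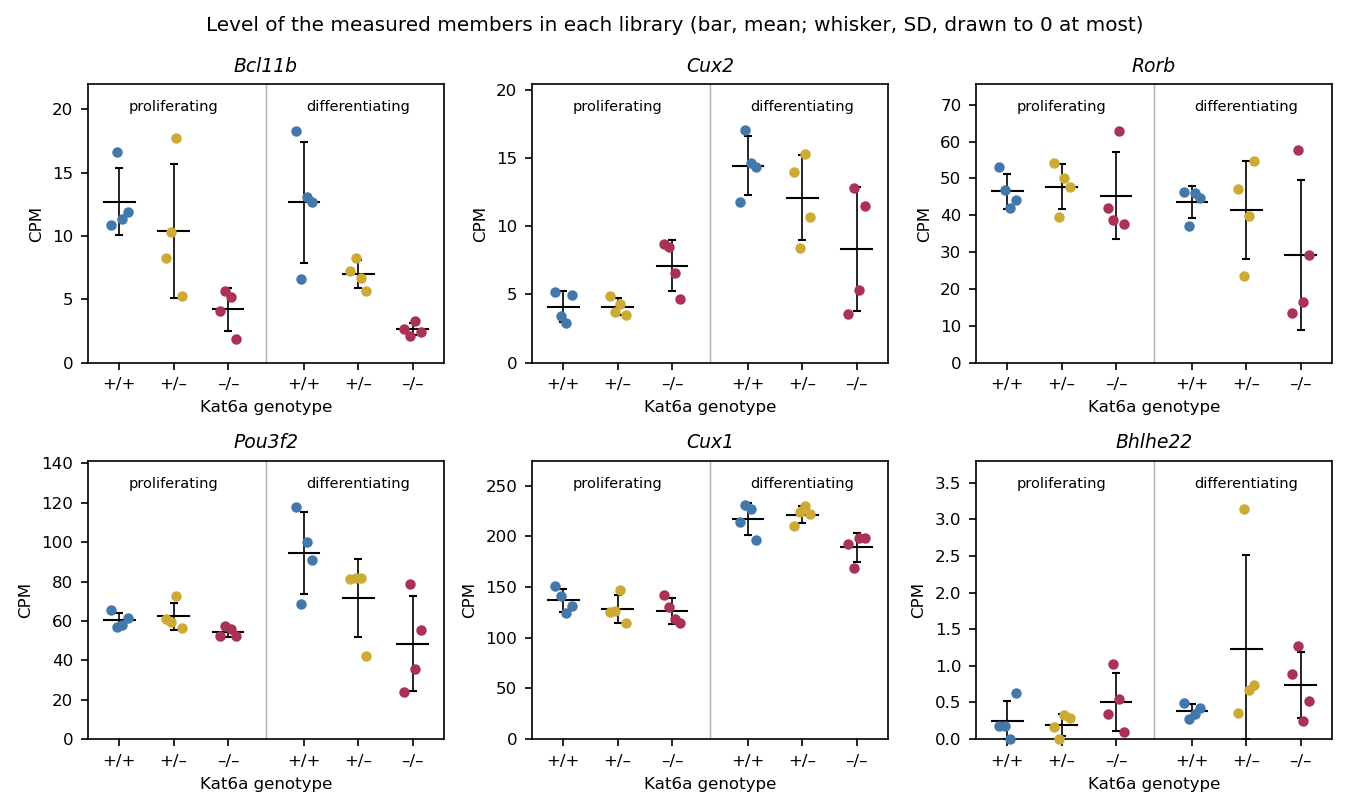
Level of 6 members in each of the 24 libraries, in CPM on a linear axis, by *Kat6a* genotype within each condition. Points are libraries, bars means and whiskers SD (n = 4). *Bcl11b* was below the *Kat6a*+/+ range in all *Kat6a*–/– libraries of both conditions, whereas *Cux2*, *Rorb* and *Pou3f2* spread widely among the differentiating *Kat6a*–/– libraries.

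*Bcl11b* (Entrez 58208; GRCm39 chromosome 12, 107876656 to 107970417), a zinc finger gene also known as *Ctip2* and needed for corticospinal neurons, was lower in *Kat6a*–/– NSPCs of both conditions. In proliferating *Kat6a*+/+ NSPCs it was at 10.9, 16.7, 11.4 and 11.9 CPM in replicates 1 to 4, and in *Kat6a*–/– NSPCs at 4.08, 5.67, 5.15 and 1.89 CPM. Every *Kat6a*–/– library was below every *Kat6a*+/+ library. The log2 fold-change was −1.64 (SE 0.38, FDR 0.00723, limma-voom), where genes with a false discovery rate (FDR) under 0.05 were called. In the litters that held both genotypes, the log2 ratio of means was −1.22 in one, with 2 *Kat6a*–/– libraries and 1 *Kat6a*+/+ library, and −1.21 in the other, with 1 of each.

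In differentiating NSPCs, *Bcl11b* was at 18.3, 6.61, 13.1 and 12.7 CPM in *Kat6a*+/+ and at 2.68, 2.12, 3.31 and 2.45 CPM in *Kat6a*–/– libraries. Again there was no overlap. The log2 fold-change was −2.16 (SE 0.23, FDR 1.67e-05, limma-trend with library weights). Within the litters that held both genotypes the log2 ratios were −2.44 and −1.93. *Bcl11b* was called in all 11 other settings and all 12 fits that left out a library, with estimates between −2.52 and −1.84.

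*Bcl11b* in *Kat6a*+/– NSPCs lay between the homozygous genotypes on average, most clearly after differentiation. The 4 differentiating *Kat6a*+/– libraries were at 7.23, 8.29, 6.67 and 5.65 CPM. All 4 were above all *Kat6a*–/– libraries, and all but 1 were within the *Kat6a*+/+ range, whose lowest library was at 6.61 CPM. The log2 fold-change against *Kat6a*+/+ was −1.01 (SE 0.25, limma FDR 0.165) and did not pass the threshold. Without *Kat6a*+/+ replicate 2, the low library of that group, it was −1.18 (limma FDR 0.0215). In proliferating NSPCs the *Kat6a*+/– libraries ranged from 5.27 to 17.7 CPM and overlapped the *Kat6a*+/+ range.

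*Bcl11b* is also expressed by striatal neurons and interneurons, and markers of these cells were examined beside it. The summed level of 6 striatal markers was 41.2 to 72.8 CPM in proliferating *Kat6a*–/– and 75.6 to 91.8 CPM in proliferating *Kat6a*+/+ libraries. Of the 4 markers tested there, 1 was called higher and 1 lower. In differentiating NSPCs the summed level was 49.8 to 73.3 CPM and 41.8 to 56.9 CPM, which overlapped. Of the 4 markers tested, 1 was called higher and none lower. The summed level of 11 interneuron markers was 12.48 to 17.8 CPM in proliferating *Kat6a*–/– and 8.95 to 12.3 CPM in proliferating *Kat6a*+/+ libraries. Of the 3 markers tested there, 2 were called higher and 1 lower. In differentiating NSPCs the summed level was 27.2 to 33.2 CPM in *Kat6a*–/– and 46.0 to 93.5 CPM in *Kat6a*+/+ libraries. Of the 8 markers tested, none was called higher and 7 were called lower. The part of striatal neurons and interneurons in the level of *Bcl11b* was not tested. In such bulk RNA, fewer cells that express a gene and less RNA per cell cannot be told apart.

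The upper-layer members differed from *Bcl11b* in proliferating NSPCs. *Cux2* (Entrez 13048; GRCm39 chromosome 5, 121994429 to 122188521), a homeobox gene of upper-layer neurons, was at 5.16, 3.43, 2.92 and 4.95 CPM in *Kat6a*+/+ and at 8.72, 8.51, 6.57 and 4.69 CPM in *Kat6a*–/– libraries. In all, 3 of 4 *Kat6a*–/– libraries were above the *Kat6a*+/+ range and 1 was inside it. *Cux2* rose, with a log2 fold-change of 0.77 (SE 0.22, limma FDR 0.0181). The call was lost without *Kat6a*–/– replicate 1 (0.66, limma FDR 0.0553) and without *Kat6a*+/+ replicate 3 (0.61, limma FDR 0.0513).

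The other upper-layer members were not called in proliferating *Kat6a*–/– vs. *Kat6a*+/+ NSPCs. *Rorb*, a nuclear receptor gene of layer 4, was at 45.3 ± 11.9 CPM in the former and 46.5 ± 4.82 CPM in the latter. Its log2 fold-change was 0.02 (SE 0.13, limma FDR 0.927). *Pou3f2*, a POU homeobox gene also known as *Brn2*, was at 54.5 ± 2.63 and 60.5 ± 3.85 CPM, with a log2 fold-change of −0.11 (SE 0.08, limma FDR 0.303), and 3 of its 4 *Kat6a*–/– libraries lay below the *Kat6a*+/+ range. *Cux1*, the widely expressed relative of *Cux2*, was at 126 ± 12.4 and 137 ± 11.6 CPM, with a log2 fold-change of −0.07 (SE 0.08, limma FDR 0.560). Each SE was 0.13 or less.

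In total, 2 of the 5 members tested in proliferating NSPCs were called in *Kat6a*–/– vs. *Kat6a*+/+, *Bcl11b* lower and *Cux2* higher, where 30.0% of all 12276 genes tested were called. The median log2 fold-change of the 5 members was −0.07, and that of all tested genes was −0.0045. Against *Kat6a*+/– the same 2 members were called, where 14.8% of genes were. *Bcl11b* had a log2 fold-change of −1.37 (SE 0.38, limma FDR 0.0309) and *Cux2* of 0.77 (SE 0.23, limma FDR 0.0391). These comparisons share the *Kat6a*–/– libraries. Either call was lost on leaving out single libraries, and neither gene was called by the fit without a litter term. No member was called in proliferating *Kat6a*+/– vs. *Kat6a*+/+ NSPCs, and none had an unadjusted limma p under 0.05. No gene at all was called by limma there (0.0%), 912 (7.43%) had an unadjusted p under 0.05, edgeR called 0 and DESeq2 28.

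**Figure D2:**
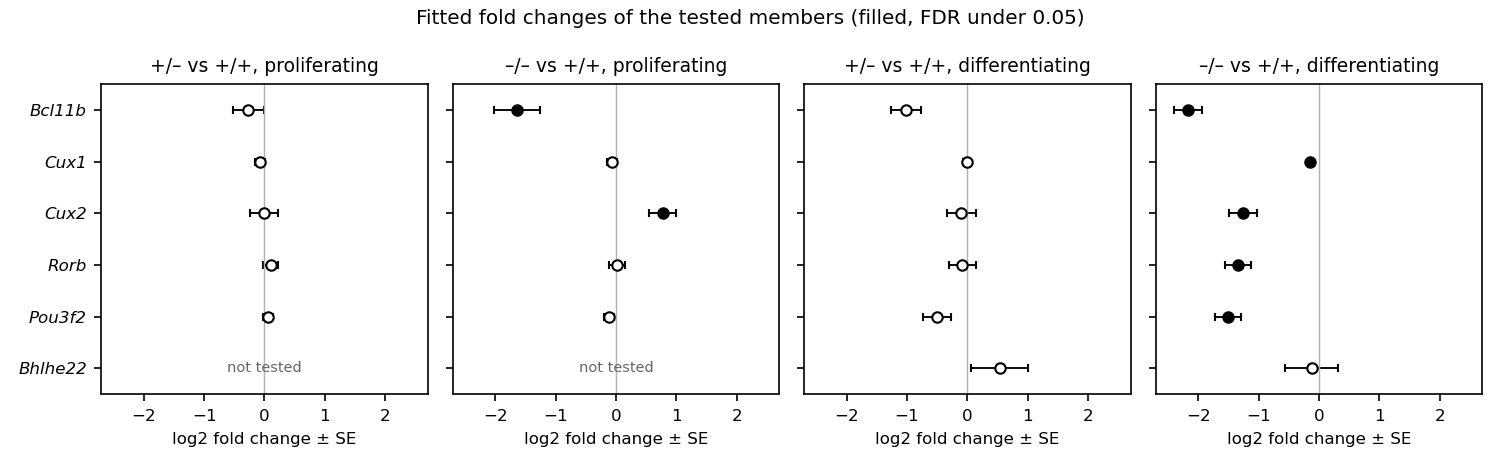
Log2 fold-changes against *Kat6a*+/+ with their SE for the members tested, in *Kat6a*+/– and *Kat6a*–/– NSPCs of each condition (n = 4 per group). Filled points passed an FDR of 0.05, which 2 members did in proliferating and 5 in differentiating *Kat6a*–/– NSPCs, and none in *Kat6a*+/– NSPCs.

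In differentiating NSPCs, 5 of 6 tested members were called lower in *Kat6a*–/– vs. *Kat6a*+/+ by limma-trend, where 54.4% of 13339 genes were called and 27.7% were called lower. Of the genes called, 49.1% were higher, and 31.7% with library totals in place of TMM scaling, which moved the median of all genes from −0.02 to −0.17. The median log2 fold-change of the 6 members was −1.30, and the same 5 members were called with library totals. *Bcl11b* has been given above, and the other 4 were the upper-layer members. Unlike *Bcl11b*, each of these had at least 1 *Kat6a*–/– library that was not below the *Kat6a*+/+ range.

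*Cux2* was at 11.8, 17.0, 14.6 and 14.3 CPM in differentiating *Kat6a*+/+ and at 3.58, 12.8, 5.30 and 11.5 CPM in *Kat6a*–/– libraries. Replicates 1, 3 and 4 were below the *Kat6a*+/+ range and replicate 2 was inside it. The log2 fold-change was −1.26 (SE 0.23, limma FDR 5.58e-04). *Rorb* (Entrez 225998; GRCm39 chromosome 19, 18907969 to 19088585) was at 46.3, 37.0, 46.0 and 44.8 CPM in *Kat6a*+/+ and at 13.5, 57.9, 16.4 and 29.2 CPM in *Kat6a*–/– libraries. Replicate 2 was above all *Kat6a*+/+ libraries, and the other 3 were below them. The log2 fold-change was −1.34 (SE 0.21, limma FDR 2.61e-04).

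*Pou3f2* (Entrez 18992; GRCm39 chromosome 4, 22482780 to 22488366) was at 118, 68.5, 100 and 91.1 CPM in differentiating *Kat6a*+/+ and at 23.9, 78.9, 35.7 and 55.3 CPM in *Kat6a*–/– libraries. As for *Cux2*, 3 *Kat6a*–/– libraries were below the *Kat6a*+/+ range and replicate 2 was inside it. The log2 fold-change was −1.50 (SE 0.22, limma FDR 1.30e-04). *Cux1* (Entrez 13047; GRCm39 chromosome 5, 136276755 to 136596408) was at 214, 231, 227 and 196 CPM in *Kat6a*+/+ and at 193, 168, 199 and 198 CPM in *Kat6a*–/– libraries. The groups overlapped, and the log2 fold-change was −0.15 (SE 0.06, limma FDR 0.0476), next to the threshold. With library totals it was −0.30 (limma FDR 8.61e-04), and the shift of all genes was about as large as that difference. Gene counts of *Cux1* also pool transcripts of a second protein, CASP, from the same locus.

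The calls of *Cux2*, *Rorb* and *Pou3f2* depended on *Kat6a*–/– replicates 1 and 3, although replicate 4 was also below the *Kat6a*+/+ range for each. In the weighted fit, 69.0% of the total for the *Kat6a*–/– group fell on replicate 3, and 4.22% on replicate 2. Without replicate 1 the log2 fold-changes were −0.66, −0.51 and −0.91, in this order, with limma FDR of 0.273, 0.473 and 0.165. Without replicate 3 they were −0.66, −0.40 and −0.95, with limma FDR of 0.372, 0.628 and 0.220. Calls were lost over all genes as well, from 7258 to 1212 without replicate 1 and 939 without replicate 3. With equal weights for all libraries, *Pou3f2* was called (−1.08, limma FDR 0.0401), and *Cux2* (−0.96, limma FDR 0.0739) and *Rorb* (−0.81, limma FDR 0.159) were not. Without replicate 2, all 5 members were called. edgeR called *Bcl11b* alone, and DESeq2 called *Bcl11b* and *Pou3f2*. The *Cux1* call was lost in 8 of 11 other settings.

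**Figure D3:**
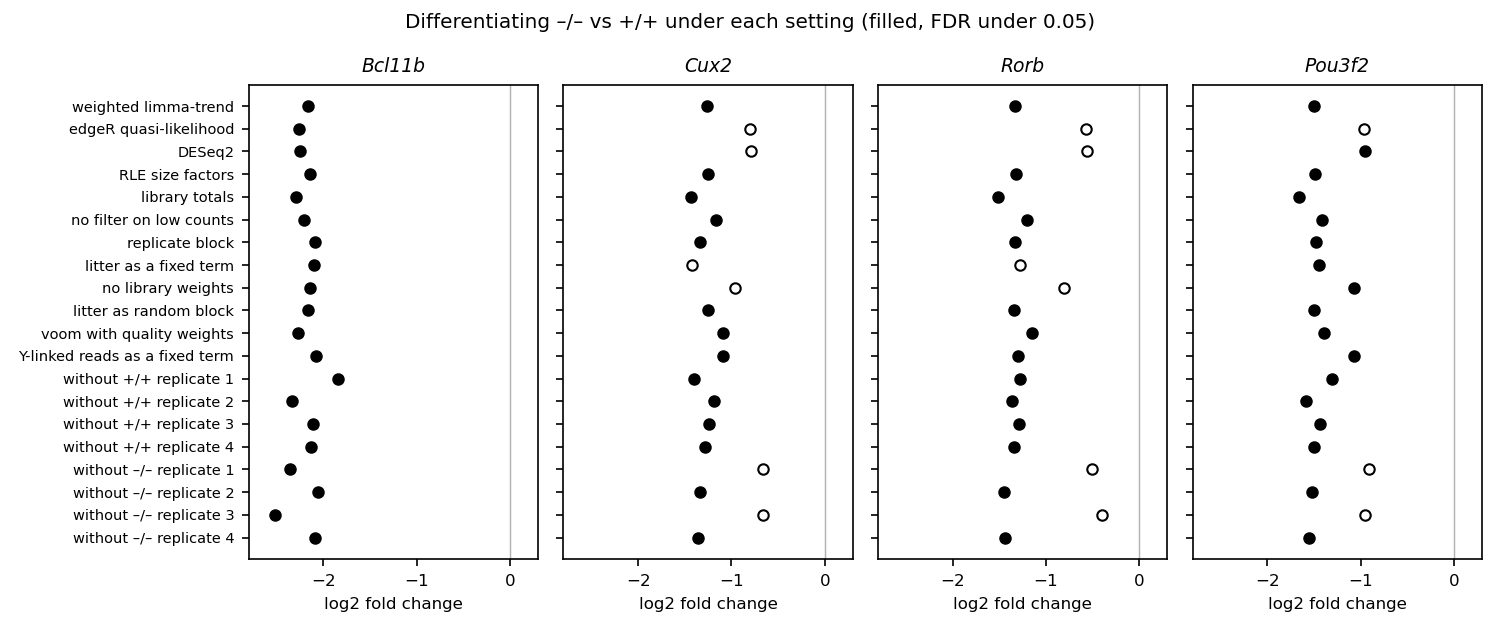
Log2 fold-change of 4 members in differentiating *Kat6a*–/– vs. *Kat6a*+/+ NSPCs under each setting, one per line, with those that leave out a *Kat6a*+/– library not drawn. Filled points passed an FDR of 0.05. *Bcl11b* was filled throughout, while the other 3 members were open without *Kat6a*–/– replicate 1 or 3.

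Replicate 2 of the differentiating *Kat6a*–/– NSPCs stood apart from the other 3 in markers of other cells as well. The summed level of 9 mesenchymal and meningeal markers was 277, 43.5, 260 and 180 CPM in *Kat6a*–/– replicates 1 to 4, and 32.9 to 66.4 CPM in *Kat6a*+/+ libraries. Replicate 2 was thus the one *Kat6a*–/– library within the *Kat6a*+/+ range of these markers, as it was for *Cux2* and *Pou3f2*. The summed level of 9 astrocyte markers was 1969, 7405, 2274 and 3792 CPM in the same order, and 2471 to 3512 CPM in *Kat6a*+/+ libraries. The summed level of 8 markers of dividing cells was 94.1 to 244 CPM in the 4 *Kat6a*–/– libraries and 622 to 1037 CPM in *Kat6a*+/+ libraries, with replicate 2 the lowest. The part of these cells in the levels of the members was not tested. Of the mesenchymal markers, 1 was at 0 in all *Kat6a*–/– libraries, and none of the astrocyte markers was.

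**Figure D4:**
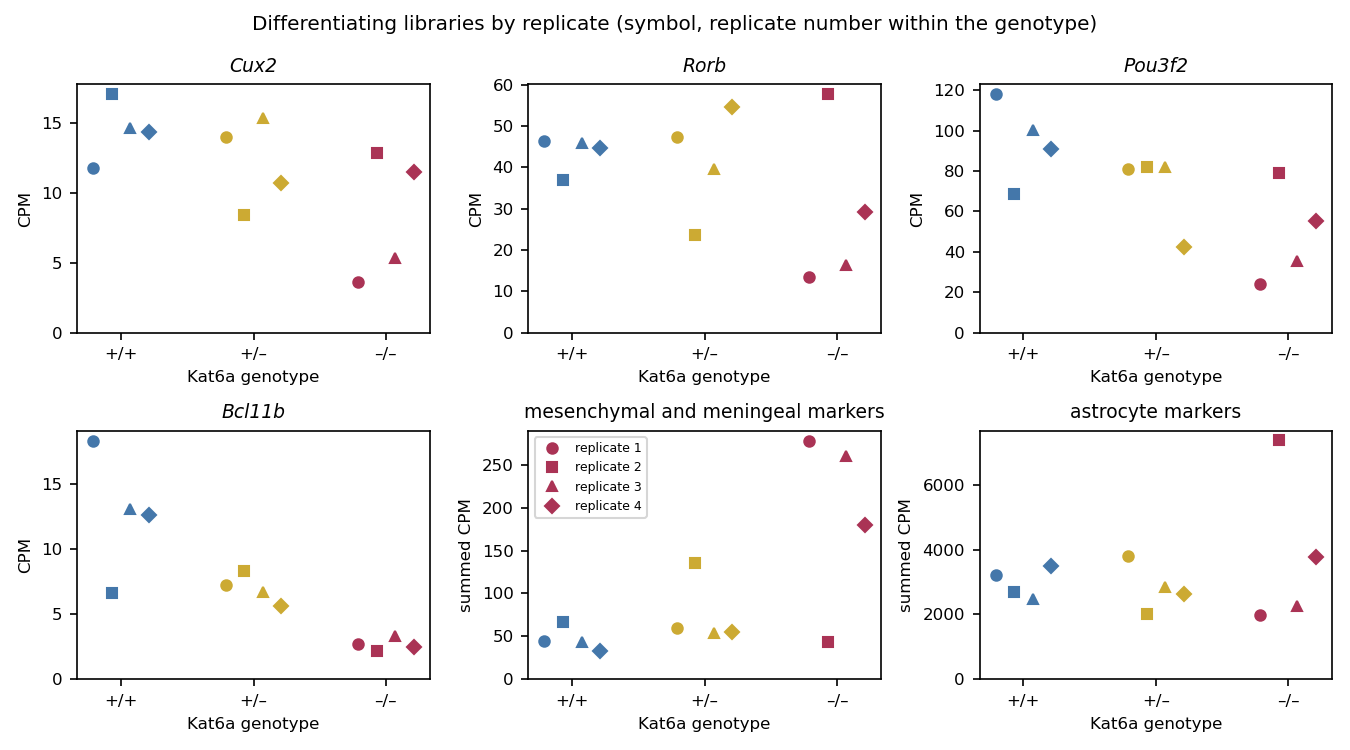
Differentiating libraries by genotype, with 1 symbol per replicate number, for 4 members in CPM and for 2 marker lists in summed CPM. *Kat6a*–/– replicate 2 (square) was high in *Cux2*, *Rorb*, *Pou3f2* and astrocyte markers and low in mesenchymal markers (43.5 CPM), while *Bcl11b* was between 2.12 and 3.31 CPM in all 4 *Kat6a*–/– libraries.

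The 4 *Kat6a*–/– libraries kept one order for the 3 members, with replicates 1, 3, 4 and 2 from low to high for *Rorb* and *Pou3f2* and also for *Cux2*. Over the 12 differentiating libraries of the 3 genotypes, log2 CPM of *Cux2* and *Rorb* had a Pearson's r of 0.859, *Cux2* and *Pou3f2* of 0.804 and *Rorb* and *Pou3f2* of 0.703. *Bcl11b* had r = 0.699 with *Pou3f2*, 0.461 with *Cux2* and 0.407 with *Rorb*. *Cux1* had r = 0.0751 with *Rorb* and 0.296 with *Cux2*. These values are descriptions over libraries that share genotype differences, litters and depth.

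The genes whose log2 CPM followed each member most closely over the 12 differentiating libraries were *Crmp1*, *Chrna4* and *Pdzrn3* for *Bcl11b* (r = 0.959, 0.958 and 0.958). *Crmp1* encodes a protein of growing axons and *Chrna4* a subunit of the nicotinic acetylcholine receptor. For *Cux1* they were *Anln*, *Gas2l3* and *Rad54b* (0.956, 0.955 and 0.938), and *Anln* encodes anillin, a protein of dividing cells. For *Cux2* they were *Rabl2*, *Mok* and *Crtc1* (0.966, 0.964 and 0.964). For *Rorb* they were *Sesn3*, *Elmod2* and *Avl9* (0.983, 0.975 and 0.974), and for *Pou3f2* *Vangl2*, *Tmtc2* and *Septin3* (0.971, 0.966 and 0.966). *Bhlhe22* had lower values, with *Ttc7b* at 0.902, *Rapgef1* at 0.886 and *Dtx2* at 0.818. Many genes differed between genotypes here, so high values are common to these libraries.

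Differentiating *Kat6a*+/– NSPCs had no member called against *Kat6a*+/+. Limma called no gene of 13339 (0.0%), with 1926 (14.4%) at an unadjusted p under 0.05, among which *Bcl11b* was the one member. edgeR called 0 genes and DESeq2 8, none of them a member. *Pou3f2* was at 81.1, 81.8, 81.8 and 42.3 CPM in *Kat6a*+/– libraries, inside the *Kat6a*+/+ range except for replicate 4. Its log2 fold-change was −0.50 (SE 0.23, limma FDR 0.347). *Cux2* was at 12.1 ± 3.12 CPM, *Rorb* at 41.3 ± 13.3 CPM and *Cux1* at 222 ± 8.24 CPM, and all 3 overlapped the *Kat6a*+/+ range.

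Compared with *Kat6a*+/–, differentiating *Kat6a*–/– NSPCs had 4 of 6 members called lower, where 37.5% of genes were called and 18.5% were called lower. Of the genes called, 50.8% were higher, and 31.7% with library totals. The log2 fold-changes were −1.15 for *Bcl11b* (SE 0.27, limma FDR 0.00678), −1.16 for *Cux2* (SE 0.27, limma FDR 0.0057), −1.25 for *Rorb* (SE 0.25, limma FDR 0.00296) and −1.001 for *Pou3f2* (SE 0.25, limma FDR 0.00977). *Bcl11b* libraries of the 2 genotypes did not overlap, and those of the other 3 members did. *Cux1* was not called, although its 4 *Kat6a*–/– libraries were below all *Kat6a*+/– libraries. No member was called without *Kat6a*–/– replicate 1 or without replicate 3.

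The change from proliferating to differentiating NSPCs was then examined within each genotype. In *Kat6a*+/+ NSPCs, 3 of 6 members were higher after differentiation, where 72.9% of 13590 genes were called and 36.7% were called higher. *Cux2* rose from 4.11 ± 1.11 to 14.4 ± 2.15 CPM, a log2 fold-change of 1.73 (SE 0.31, limma FDR 4.13e-05). *Cux1* rose by 0.67 (SE 0.09, limma FDR 5.78e-07) and *Pou3f2* by 0.62 (SE 0.25, limma FDR 0.0343). The *Pou3f2* call was lost on leaving out any of 4 single libraries, differentiating replicate 1 or 3 or proliferating replicate 2 or 3 (limma FDR 0.0520 to 0.0830). For each of these 3, all differentiating libraries were above all proliferating ones. The share of all genes that separated in this way was not counted. *Bcl11b* was at 12.7 ± 2.67 CPM before and 12.7 ± 4.77 CPM after differentiation, *Rorb* was at 46.5 ± 4.82 and 43.5 ± 4.38 CPM, and neither was called.

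*Cux2* and *Cux1* also rose in *Kat6a*+/– NSPCs, by 1.53 (SE 0.38, limma FDR 0.00126) and 0.79 (SE 0.09, limma FDR 6.07e-08), where 69.7% of genes were called and 35.4% were called higher. *Bhlhe22* was the third member called there, at 2.20 (SE 0.83, limma FDR 0.0226). That call was lost without *Kat6a*+/– differentiating replicate 2 (1.64, limma FDR 0.065), in which *Bhlhe22* had 47 counts, and without proliferating replicate 2 (1.62, limma FDR 0.087), in which it had 0 counts. In *Kat6a*–/– NSPCs 2 members were called, where 69.2% of genes were. *Cux1* rose by 0.59 (SE 0.09, limma FDR 3.62e-06) and *Rorb* fell, with a log2 fold-change of −0.80 (SE 0.33, limma FDR 0.0356). The *Rorb* call was lost without differentiating *Kat6a*–/– replicate 1 or 3 or proliferating *Kat6a*–/– replicate 3. In the 3 *Kat6a*–/– embryos with libraries in both conditions *Rorb* changed by 0.58, −1.94 and −0.37 on the log2 scale, which is not one direction, and with embryo as a random block it was −0.81 (limma FDR 0.0363).

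*Cux2* did not pass the test in *Kat6a*–/– NSPCs, at 7.12 ± 1.89 CPM before and 8.31 ± 4.55 CPM after differentiation, a log2 fold-change of 0.14 (SE 0.37, limma FDR 0.753). The interaction tests this difference between genotypes directly. It was −1.59 for *Cux2* (SE 0.48, limma FDR 0.0314), the one member called among 6, where 13.9% of genes were called. Of these genes, 45.6% were higher, and 22.1% with library totals, where *Cux2* was at −1.77 (limma FDR 0.0165). In the 3 *Kat6a*–/– embryos that had libraries in both conditions, *Cux2* changed by 0.59, −0.31 and 1.29 on the log2 scale. In the 2 *Kat6a*+/+ embryos it changed by 1.19 and 2.33, and in the single *Kat6a*+/– embryo by 1.69. The litter numbers of *Kat6a*+/+ replicate 2 in the 2 conditions differ by transposed digits and have the same embryo number, and whether these are 1 embryo is not known. They were treated as separate embryos and litters. The ranges of the homozygous genotypes overlapped, since 1 *Kat6a*–/– embryo was above 1 *Kat6a*+/+ embryo.

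The interaction was −0.91 for *Pou3f2* (SE 0.38, limma FDR 0.113), −0.68 for *Rorb* (SE 0.43, limma FDR 0.307), −0.50 for *Bcl11b* (SE 0.60, limma FDR 0.620) and −0.08 for *Cux1* (SE 0.12, limma FDR 0.719). *Pou3f2* and *Rorb* passed the threshold with library quality weights (limma FDR 9.36e-04 and 0.00709) and without differentiating *Kat6a*–/– replicate 2 (limma FDR 0.00828 and 0.0127). The *Cux2* call was lost when litter entered as a fixed effect (−1.42, limma FDR 0.130) and with the replicate number as a block (−1.56, limma FDR 0.0563), and without differentiating *Kat6a*–/– replicate 3, proliferating *Kat6a*+/+ replicate 2 or proliferating *Kat6a*–/– replicate 1 or 2 (limma FDR 0.0574 to 0.0661).

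The other 4 members were at the edge of detection. *Neurod6*, a bHLH gene of newborn and mature projection neurons, had 0 counts in all 12 proliferating libraries, which allows up to 0.0759 to 0.387 CPM (3 counts in the largest and smallest library). After differentiation it had 3, 0, 11 and 9 counts in *Kat6a*+/+, 1, 5, 3 and 0 in *Kat6a*+/– and 0, 0, 0 and 3 in *Kat6a*–/– libraries. *Fezf2*, a zinc finger gene of layer 5, had 1 count in all proliferating libraries together and 0 to 8 counts per differentiating library. *Tbr1*, a T-box gene of layer 6, had 0 to 6 counts in proliferating and 0 to 13 counts in differentiating libraries. None of these 3 passed the filter on low counts in any fit.

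*Tbr1* had 7, 6, 5 and 13 counts in differentiating *Kat6a*+/+ and 0, 2, 3 and 2 counts in *Kat6a*–/– libraries, so the groups did not overlap. In proliferating libraries it had 6, 1, 2 and 0 counts in *Kat6a*+/+ and 5, 1, 3 and 4 counts in *Kat6a*–/–. In CPM these overlapped, since 1 *Kat6a*–/– library was inside the *Kat6a*+/+ range and 3 were above it. The fits without a filter called *Tbr1* in both comparisons, at 1.63 (limma FDR 0.0436) in proliferating and −1.03 (limma FDR 0.0466) in differentiating NSPCs, from 22 and 38 counts over the 8 libraries. *Bhlhe22*, a bHLH gene of projection neuron area identity, was tested in differentiating NSPCs from 156 counts over 12 libraries. The *Kat6a*+/+ libraries averaged 0.381 ± 0.0967 CPM and the *Kat6a*–/– libraries 0.732 ± 0.450 CPM, with overlap. The weighted log2 fold-change was −0.12 (SE 0.44, limma FDR 0.838) and was positive without the weights.

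**Figure D5:**
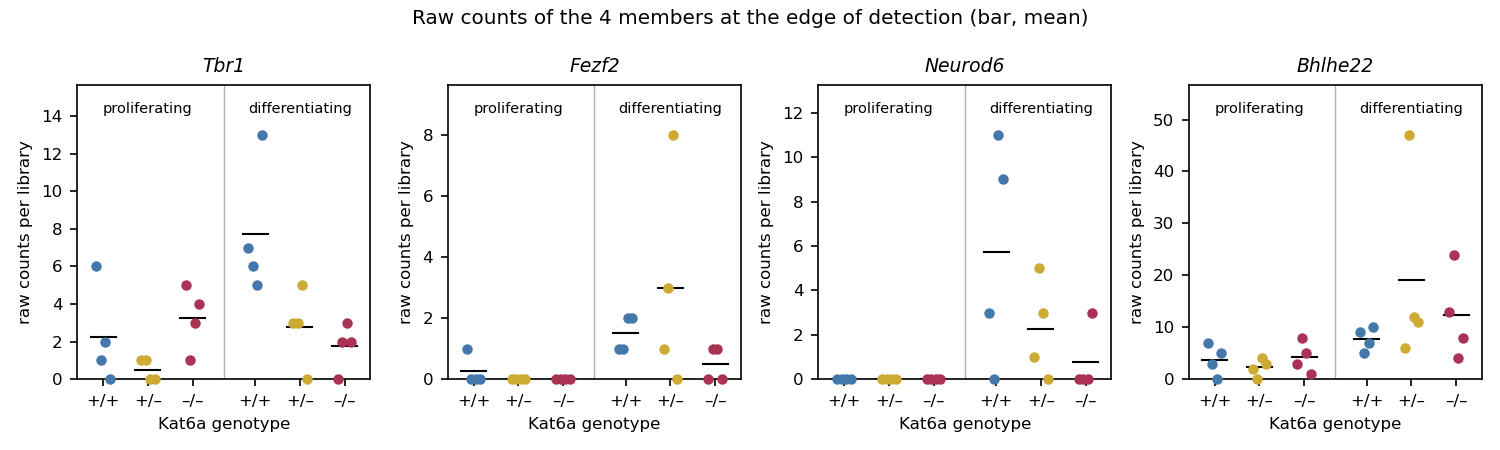
Raw counts per library of the 4 members with the lowest levels, by *Kat6a* genotype within each condition, with the mean as a bar (n = 4). *Neurod6* was at 0 in all proliferating libraries, and the highest value of the 4 genes was 47 counts of *Bhlhe22* in differentiating *Kat6a*+/– replicate 2.

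Other projection neuron genes varied in level. Of 9, 3 were tested after differentiation, among them *Zbtb18*, a zinc finger gene also expressed by progenitors, at 168 ± 17.9 CPM in *Kat6a*+/+ NSPCs. *Slc17a6* and *Slc17a7*, the vesicular glutamate transporters of excitatory neurons, had at most 0.134 and 0.619 CPM in any differentiating library, and *Neurod2* had at most 0.713 CPM. Genes of young neurons were measured. *Dcx*, a microtubule-associated protein of migrating neurons, was at 39.3 ± 23.9 CPM in differentiating *Kat6a*+/+ and 4.55 ± 3.77 CPM in *Kat6a*–/– NSPCs (log2 fold-change −4.51, SE 0.49, limma FDR 1.83e-05). Of 12 neuron markers, 10 were tested in this comparison, of which 2 rose and 5 fell, where 54.4% of all genes were called. The summed level of the 12 markers was 532 to 916 CPM in *Kat6a*–/– and 593 to 780 CPM in *Kat6a*+/+ libraries, and most of it was *Map2*.

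The paralogs of the members gave a further view of the same families. *Bcl11a*, the paralog of *Bcl11b*, was at 2.26 ± 0.888 CPM in differentiating *Kat6a*–/– and 9.75 ± 1.94 CPM in *Kat6a*+/+ NSPCs. Its log2 fold-change was −2.05 (SE 0.18, limma FDR 4.38e-06), and all 23 other settings called it. In proliferating NSPCs it also fell (−1.58, SE 0.53, limma FDR 0.0379), which 14 of 22 other settings called. Both *Bcl11* genes were thus lower in *Kat6a*–/– NSPCs of both conditions.

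Of the POU class 3 genes, *Pou3f3* was lower in *Kat6a*–/– NSPCs of both conditions, at −0.66 (SE 0.09, limma FDR 1.75e-04) and −0.87 (SE 0.10, limma FDR 3.00e-05), and all 22 and all 23 other settings called it. *Pou3f4* fell in differentiating NSPCs (−1.53, SE 0.16, limma FDR 1.74e-05), where 22 of 23 other settings called it. *Pou3f4* in proliferating NSPCs (−0.47, limma FDR 0.0675) and *Pou3f1* in either condition did not pass. *Eomes*, the T-box relative of *Tbr1* that marks intermediate progenitors, was at 19.9 ± 7.45 CPM in differentiating *Kat6a*+/+ and 1.12 ± 0.607 CPM in *Kat6a*–/– NSPCs. Its log2 fold-change was −4.29 (SE 0.35, limma FDR 3.25e-06).

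Other paralogs rose or did not pass. In differentiating *Kat6a*–/– NSPCs, *Neurod1* (2.12, SE 0.54, limma FDR 0.00556) rose, at a mean level of 0.899 CPM and in 16 of 23 other settings. *Rora* had log2 fold-changes of 0.39 (limma FDR 0.150) in proliferating and −0.03 (limma FDR 0.789) in differentiating *Kat6a*–/– NSPCs. *Fezf1*, *Neurod2*, *Neurod4*, *Tbx21* and *Bhlhe23* were too low to be tested between these genotypes. In total, 2 of 5 paralogs tested in proliferating NSPCs fell and none rose, and 4 of 8 tested in differentiating NSPCs fell and 2 rose. Of all genes, 30.0% and 54.4% were called in these comparisons. The median log2 fold-changes of the paralogs were −0.51 and −0.45.

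Other genes of the deep and upper layers moved both ways. Among 13 other deep-layer genes, 9 were tested in proliferating NSPCs, of which 4 rose and 1 fell in *Kat6a*–/–, where 30.0% of all genes were called. In differentiating NSPCs 12 were tested, of which 2 rose and 4 fell, where 54.4% of all genes were called. *Otx1*, a homeobox gene of deep-layer neurons and progenitors, fell in both conditions (−1.50, SE 0.20, limma FDR 1.70e-04, and −1.83, SE 0.18, limma FDR 1.19e-05), in all other settings. *Ldb2* rose in proliferating NSPCs (3.00, SE 0.35, limma FDR 1.14e-04). *Sox5*, which controls the timing of deep-layer fates, rose there (0.40, SE 0.10, limma FDR 0.0108) and fell after differentiation (−1.44, SE 0.21, limma FDR 1.38e-04). The second *Sox5* call was made in 17 of 23 other settings.

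Among 10 other upper-layer genes, 9 were tested in proliferating NSPCs, of which 2 rose and 4 fell, and 10 in differentiating NSPCs, of which 2 rose and 4 fell. The shares called over all genes were again 30.0% and 54.4%, in this order. *Plxnd1*, a semaphorin receptor gene, rose after differentiation (1.91, SE 0.21, limma FDR 1.85e-05). *Lmo4* fell in proliferating (−0.50, SE 0.08, limma FDR 5.71e-04) and rose in differentiating *Kat6a*–/– NSPCs (0.45, SE 0.09, limma FDR 0.00104), the latter in 17 of 23 other settings. The median log2 fold-changes of the 10 genes in differentiating and the 9 in proliferating NSPCs were −0.02 and −0.44. The deep-layer lists had medians of −0.14 and 0.28, in the same order.

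Factors that act upstream of the members in dorsal progenitors were examined last. Of 8 such genes, 4 were tested in proliferating *Kat6a*–/– NSPCs, of which 2 fell and 1 rose, where 30.0% of all genes were called. In differentiating *Kat6a*–/– NSPCs 6 were tested, of which 5 fell and none rose, where 27.7% of all genes were called lower. *Emx2*, a homeobox gene of the dorsal telencephalon, fell in both conditions (−1.35, SE 0.21, limma FDR 6.41e-04, and −0.96, SE 0.09, limma FDR 6.11e-06). *Insm1*, a zinc finger gene of neurogenic progenitors, rose in proliferating (0.87, SE 0.22, limma FDR 0.0105) and fell in differentiating NSPCs (−4.44, SE 0.38, limma FDR 4.16e-06). *Pax6* was not called in either condition. *Emx1* and *Neurog1* were at or near 0 throughout.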

How the data were processed

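Messenger RNA of NSPCs was measured in 24 libraries from 200 ng of RNA each. The authors aligned stranded reads to mm39 with Rsubread and summarized them by gene with featureCounts, and the deposited values are raw counts. The strand setting and versions are not given in the sources used here, so *Cux1*, *Pou3f2*, *Neurod6* and *Bhlhe22*, which share exonic bases with opposite-strand noncoding RNAs in GENCODE vM39, carry some uncertainty.

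Groups were taken from the labels. Members and gene lists were chosen with earlier results of these data known. Protein-coding genes that passed filterByExpr (edgeR 4.0.16, R 4.3.3) were kept, without *Xist* and Y-linked genes, and scaled by TMM. Following the methods of the study, proliferating libraries were fitted with limma-voom (limma 3.58.1) in which libraries of a litter were correlated at random (0.287), and differentiating libraries with limma-trend on log2 CPM (prior count 2) with library quality weights. Contrasts between conditions came from one voom model over the 24 libraries with the same blocking (0.00365). Moderation was robust, and FDR is Benjamini-Hochberg over all genes tested, called under 0.05. Alternatives included the edgeR quasi-likelihood test and DESeq2 1.42.0, and the one with Y-linked reads as a term was chosen after seeing the data. The fits were tested on simulated data.

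CPM printed for genes use TMM-scaled totals of all 24 libraries without weights, so a ratio of means can differ from a weighted fold-change. RPKM divides this by the deposited gene length. P-values measure the spread between embryos, which shared litters. Named genes are the members, their paralogs, at most 4 genes of each other list per comparison by smallest p, and the 3 most similar genes per member by Pearson's r. *Sox5* in proliferating NSPCs, *Map2*, *Slc17a6*, *Slc17a7*, *Emx1* and *Neurog1* were named after their values were seen. Some genes of these lists are counted but not reported here by name.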

Additional observations from a re-analysis of the deposited data

Results flagged for a closer look

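Of 39 sets of 4 libraries (a member in 1 genotype and condition), 3 had 1 library far from the others, and chance alone would mark about 1 in 20. *Rorb* was at 37.0 CPM in differentiating *Kat6a*+/+ replicate 2, below the other 3 libraries at 44.8 to 46.3 CPM. *Pou3f2* was at 42.3 CPM in differentiating *Kat6a*+/– replicate 4, where the others were between 81.1 and 81.8 CPM. *Bhlhe22* was at 3.14 CPM in differentiating *Kat6a*+/– replicate 2, the highest of that group and of all libraries.

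The interaction of differentiation and *Kat6a*–/– genotype was called for 1 member, *Cux2*, at −1.59 on the log2 scale (SE 0.48, limma FDR 0.0314), and this call was lost in 2 of 11 other settings and in 4 of 24 fits without a single library. *Cux2* was higher in 4 of 4 differentiating *Kat6a*+/+ libraries than in any proliferating one, and in 2 of 4 for *Kat6a*–/–.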

How the results depend on the processing

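In differentiating *Kat6a*–/– vs. *Kat6a*+/+, 5 members were called, but 1 by edgeR, and 2 each by DESeq2, with litter as a fixed term and with no library weights. Over all genes 7258 were called there, 3244 by edgeR, 4076 by DESeq2, 1785 with litter fixed and 3097 without weights. There were 1212 without *Kat6a*–/– replicate 1, 939 without replicate 3 and 3950 with Y-linked reads as a term. Against *Kat6a*+/–, the 4 calls became 1 by edgeR, with litter fixed, without weights, with voom quality weights and with Y-linked reads as a term, and 2 by DESeq2. Genes called there fell from 5007 to between 386 (litter fixed) and 2621 (DESeq2) in these settings, and to 3031 with no filter on low counts. They rose to 5899 with library totals, and fell to 345 and 243 without *Kat6a*–/– replicates 1 and 3. In proliferating *Kat6a*–/– vs. *Kat6a*+/–, 2 became 1 by edgeR or with a replicate block and 0 with no litter term, and all genes called from 1813 to 951, 1183 and 960, in this order. Genes called in proliferating *Kat6a*–/– vs. *Kat6a*+/+ went from 3686 to 1936 with litter fixed. For differentiation, the 3 calls in *Kat6a*+/+ became 5 with no filter, and the 2 in *Kat6a*–/– became 1 by edgeR, DESeq2, the replicate block or litter fixed. The interaction had 1 call, 2 with no filter, 0 with the replicate block or litter fixed and 3 with library quality weights, which called 4799 genes instead of 1895.

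Leaving out 1 library at a time gave 1 to 5 calls in differentiating *Kat6a*–/– vs. *Kat6a*+/+, 0 to 6 against *Kat6a*+/–, 0 to 1 in *Kat6a*+/– vs. *Kat6a*+/+, 1 to 2 and 0 to 2 in the proliferating *Kat6a*–/– comparisons, 1 to 3 for differentiation in *Kat6a*–/– and 0 to 3 for the interaction. The causes were not tested.

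Among the members, signs turned only for values that were not called. *Rorb* in proliferating *Kat6a*–/– vs. *Kat6a*+/+ was −0.0068 by edgeR, −0.0049 by DESeq2, −0.034 with the replicate block, −0.045 with no litter term, and −0.16 to 0.071 without single libraries. *Bhlhe22* in differentiating *Kat6a*–/– vs. *Kat6a*+/+ was 0.93 by edgeR, 0.96 by DESeq2, 0.12 with no filter, 0.0050 with the replicate block, 0.21 with litter fixed, 0.62 without weights, 0.16 with voom quality weights, 1.07 with the Y-linked term, and −0.49 to 1.17 without single libraries. *Cux2* over differentiation in *Kat6a*–/– was −0.33 with library quality weights and −0.20 to 0.43 without single libraries. Replicate numbers were not taken as pairs in the main fits, because same-numbered libraries often came from different litters. Of 24 same-numbered pairs, 5 had a correlation over 0.1 (−0.469 to 0.477). Pairs with different numbers were not examined, so these correlations do not decide whether the numbers pair the libraries. Of the other values, 796 kept direction and side of the threshold, 95 lost a call and 5 gained one. *Tbr1*, *Fezf2* and *Neurod6* were limited by depth.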
